A study of Mus musculus with 19 samples.

Results

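The integrin subunits that recognise the Arg-Gly-Asp (RGD) sequence or bind fibronectin were followed in mammary tumours of mice in which the beta 1 integrin gene (Itgb1), the beta 3 integrin gene (Itgb3) or both were targeted. The set held 9 genes, taken by symbol from the probe sets that carry 1 gene symbol, with the highest-mean probe set per gene: Itgav, Itga5, Itga8, Itga4, Itga9, Itga2b, Itgb5, Itgb6 and Itgb8. The array covered 22180 genes with 1 symbol, of which 14230 passed a filter on low intensity, and all 9 subunits were among them. Itgb1 and Itgb3 are not in the set and serve as partners and as a check of the labels. Total RNA from 19 flash-frozen tumours, collected at end burden, was hybridised to a whole-transcript microarray. All tumours carried MMTV-NIC, a transgene in which the mouse mammary tumour virus promoter drives activated ErbB2 together with Cre recombinase in mammary epithelium. Deletion is therefore expected only in cells in which that promoter is active. Which cells of the bulk tumours had lost either integrin gene was not measured. The groups were 5 control tumours (NIC WT), 4 with floxed Itgb1 (itgb1 fl/fl, Itgb1 knockout), 4 with floxed Itgb3 (itgb3 fl/fl, Itgb3 knockout) and 6 labelled as carrying both floxed genes (labelled double knockout). The ages of the mice were not given. The sample titles carry a different number for each tumour, but the labels do not state that each came from a separate animal. The spread measured here is therefore that between samples.

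Integrins are heterodimers of an alpha and a beta subunit that link the extracellular matrix to the actin cytoskeleton. Alpha v pairs with beta 1, beta 3, beta 5, beta 6 or beta 8 and binds RGD motifs in vitronectin, fibronectin and the latency peptide of TGF-beta, whereas alpha 5, alpha 8 and alpha 9 depend on beta 1, alpha 4 pairs with beta 1 or beta 7, and alpha IIb (Itga2b) depends on beta 3. Loss of a shared beta subunit thus leaves some alpha subunits without a partner, and the remaining alpha v dimers are the receptors most often considered as substitutes. A transcript level does not report how much dimer reaches the cell surface.

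Values are log2 intensities as normalized by the authors, so a difference of 1 is a doubling, and levels were compared only within a probe set. Itgb1 served as the check of the first deletion. Its difference from control was -1.46 in the Itgb1 knockouts (SE 0.212, limma adjusted p = 0.0217) and -1.84 in the tumours labelled double knockout (SE 0.191, limma adjusted p = 0.000156). Itgb3 levels were 6.34, 7.31, 6.97 and 7.40 in the 4 Itgb3 knockouts against 7.72 to 8.41 in the controls. The groups did not overlap, as 1.17% of all genes also did not in that direction, and the difference of -1.12 had a limma adjusted p of 0.723. Itgb3 ran from 7.69 to 8.56 in the labelled double knockouts. The labelled double knockouts thus showed no lower Itgb3 signal than control, which goes against their label, and every direction given for this group below refers to tumours with that label. The array medians lay between 4.32 and 4.48, and 10 of 11 listed markers of luminal epithelium were measured and passed the filter.

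Start-site sequences of 3 subunits are shown. Itgb5 was taken because it came nearest to the test threshold. Itgav and Itga8 were taken because they varied together most closely of all 36 pairs of the set after each group mean was subtracted. Without that step Itga5 and Itga9 did so most closely. Each sequence is the 250 bases before the start that the RefSeq promoter table (GRCm38.p6) gives, written 5′ to 3′ on the strand of the gene. For Itgav and Itga8 the window lies wholly or partly inside the span of the gene in the RefSeq gene table. Among those not shown, the same holds for Itga9 and for 1 of the 2 windows of Itgb6. Such a window is not upstream of the outermost start. Capitals mark the GC box, GGGCGG on either strand, which is the recognition core of Sp1-type factors.
Itgb5, chr16:33829415-33829664, plus strand: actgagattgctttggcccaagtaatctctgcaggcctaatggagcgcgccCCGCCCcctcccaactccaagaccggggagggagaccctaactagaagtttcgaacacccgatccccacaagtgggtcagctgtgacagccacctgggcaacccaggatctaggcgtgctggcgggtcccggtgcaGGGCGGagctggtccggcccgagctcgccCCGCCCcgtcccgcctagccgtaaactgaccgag
Itgav, chr2:83724147-83724396, plus strand: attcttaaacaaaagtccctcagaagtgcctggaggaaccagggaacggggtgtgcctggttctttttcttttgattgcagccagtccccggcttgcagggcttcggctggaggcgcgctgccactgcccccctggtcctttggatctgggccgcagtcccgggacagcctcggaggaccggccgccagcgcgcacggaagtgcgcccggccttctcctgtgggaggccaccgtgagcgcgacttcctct
Itga8, chr2:12301945-12302194, minus strand: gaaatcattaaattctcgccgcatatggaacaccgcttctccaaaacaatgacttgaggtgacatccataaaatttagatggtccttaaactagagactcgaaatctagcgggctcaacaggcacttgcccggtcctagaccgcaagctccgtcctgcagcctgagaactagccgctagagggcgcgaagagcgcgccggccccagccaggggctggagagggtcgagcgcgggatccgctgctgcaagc
All 9 subunits had an entry in the RefSeq promoter table, in which 1 subunit (Itgb6) has 2 starts. Itgb5 held 3 GC boxes and Itgav and Itga8 held 0. In the whole set 3 of 9 subunits held a GC box (Itgb5, Itga5 and Itga4), beside 32.7% of the 32851 promoters in the table. The AP-1 site TGANTCA (6.75% of promoters), the TEAD site GGAATG (12.6%) and the TATA box TATAAA (12.4%), each searched on both strands, had no match in any of the 9. The G and C content of the windows was 65.2% for Itgb5, 64.4% for Itgav and 56.4% for Itga8, with a median of 52.4% over all promoters. These counts describe letters in the windows and do not show binding.

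None of the 9 subunits rose or fell in any of the 7 comparisons by limma with adjustment over all 14230 genes, which amounts to 63 tests. The closest was Itgb5 between the labelled double knockouts and the Itgb3 knockouts, 1.56-fold higher (95% interval 0.26 to 1.03 on the log2 scale, limma adjusted p = 0.0594). Against control the labelled double knockouts had higher mean levels of 8 of the 9 subunits, with a median log2 difference of 0.32 over the 9 and 0.034 over all genes. The exception was Itgb6, at -0.02. Of all genes 55.9% had a higher mean. In that comparison 0.387% of all genes passed and 16.8% had an unadjusted p under 0.05, a mark reached by 3 of the 9 (Itgb5, Itgav and Itga2b). In the same comparison 9 of 10 fibroblast and 10 of 10 blood endothelial markers had a higher mean (medians 0.49 and 0.26). So had 8 of 9 pericyte and smooth muscle and 9 of 10 macrophage markers (0.30 and 0.15). It was 4 of 5 for T and NK cells, 5 of 7 for adipocytes and 2 of 3 for lymphatic endothelium. The luminal, basal, platelet and mast cell lists had 5 of 10, 2 of 4, 2 of 5 and 1 of 3. None of these markers was called. Fits with the fibroblast or the luminal marker mean were among the alternative settings, and no subunit passed in them. Beyond these fits, the part of these cells in the subunit differences was not tested. The 3 comparisons against control share the control tumours, so their differences are given side by side and no agreement between them is counted.

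**Figure D1:**
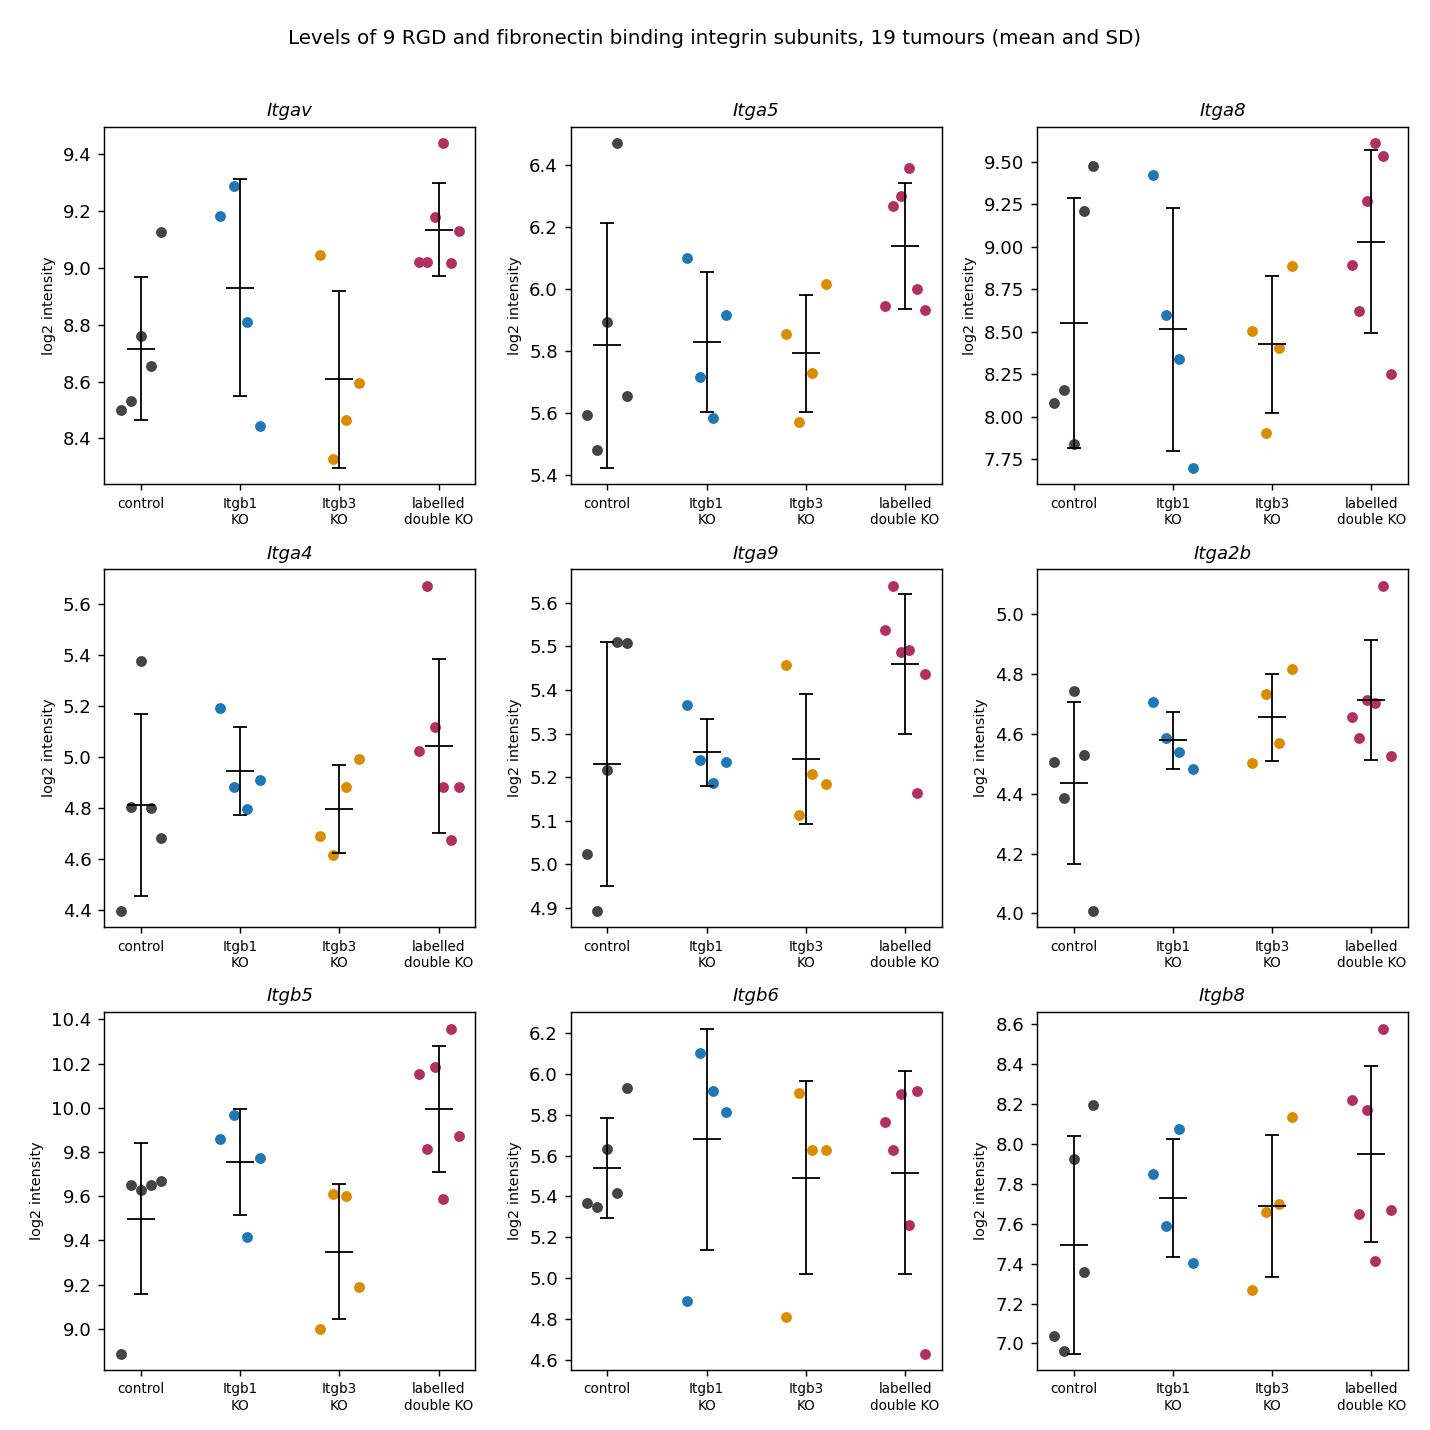
Log2 intensity of the 9 subunits in each of the 19 tumours, by group (points), with the group mean and SD (lines). Groups overlapped for every subunit, and 5 of the 6 labelled double knockouts lay above every control for Itgb5.

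Itgb5 encodes the beta subunit of alpha v beta 5, a vitronectin receptor that also takes part in endocytosis of ligand. Its log2 levels were 8.89, 9.65, 9.63, 9.65 and 9.67 in control, 9.86, 9.97, 9.41 and 9.77 in the Itgb1 knockouts, and 9.0, 9.61, 9.60 and 9.19 in the Itgb3 knockouts. The 6 labelled double knockouts ran from 9.59 through a median of 10.01 to 10.36. All but 1 of these 6 lay above every control and every Itgb3 knockout, and 1 control (8.89) and 2 Itgb3 knockouts (9.0 and 9.19) were the low tumours. The difference from control was 0.26 in the Itgb1 knockouts (SE 0.191, limma adjusted p = 0.982), -0.15 in the Itgb3 knockouts (SE 0.191, limma adjusted p = 0.945) and 0.50 in the labelled double knockouts (SE 0.172, 1.41-fold, limma adjusted p = 0.162). Against the Itgb1 knockouts the labelled double knockout difference was 0.24 (95% interval -0.14 to 0.63, limma adjusted p = 0.628). The labelled double knockouts exceeded the Itgb3 knockouts by 0.65 (SE 0.184). With each of the 19 arrays left out in turn, this difference passed in 2. It passed without the low control (0.65, SE 0.157, limma adjusted p = 0.0383), a tumour of neither group that enters only the shared estimate of the spread. It also passed without the lowest labelled double knockout, replicate 4 (0.73, limma adjusted p = 0.0443). Of 11 alternative settings it passed in 2, with arrays centred on their medians (0.76, limma adjusted p = 0.0234) and with array weights (0.69, limma adjusted p = 0.0124). Its side of the threshold thus depended on these choices.

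Itgav encodes alpha v, the partner of all 3 beta subunits of the set. Its log2 levels were 8.50, 8.53, 8.76, 8.66 and 9.13 in control, 9.18, 9.29, 8.81 and 8.45 in the Itgb1 knockouts, and 9.05, 8.33, 8.46 and 8.60 in the Itgb3 knockouts. In the labelled double knockouts the lowest was 9.02, the median 9.08 and the highest 9.44. Every one of these 6 stood above 4 of the 5 controls and 3 of the 4 Itgb3 knockouts, while 1 control (9.13) and 1 Itgb3 knockout (9.05) reached into their range. The difference from control was 0.21 in the Itgb1 knockouts (95% interval -0.16 to 0.59), -0.11 in the Itgb3 knockouts (-0.48 to 0.27) and 0.42 in the labelled double knockouts (0.08 to 0.76, limma adjusted p = 0.199). Against the Itgb1 knockouts the labelled double knockout difference was 0.20 (95% interval -0.155 to 0.563, limma adjusted p = 0.666). Against the Itgb3 knockouts the labelled double knockouts were 1.44-fold higher (0.53, SE 0.171, limma adjusted p = 0.0917). This difference passed in 2 of 11 alternative settings, with arrays centred on their medians (0.64, limma adjusted p = 0.0262) and with array weights (0.53, limma adjusted p = 0.0303). With each of the 19 arrays left out in turn it passed in 0. A second Itgav probe set, with a mean of 2.93 and thus below the intensity filter of 4.38, was not used. Averaging both sets brought the labelled double knockout difference from control to 0.15 and that from the Itgb3 knockouts to 0.30.

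In the comparison of labelled double knockouts with Itgb3 knockouts all 9 subunits had a higher mean, none was called, and 2 (Itgb5 and Itgav) had an unadjusted p under 0.05. Of all genes, 2.87% were called and 21.1% had an unadjusted p under 0.05. The median difference was 0.26 over the subunits and 0.032 over all genes, of which 54.7% had a higher mean. Centring the arrays moved the median of all genes by 0.11. Genes called higher went from 338 to 1167 and those called lower from 70 to 53. The share of called genes that were higher thus went from 82.8% to 95.7%, and was 77.2% under quantile normalization. No subunit separated the 2 groups without overlap, as 5.88% of genes did in the upward direction (1.19% for labelled double knockout against control). Markers of several cell types had higher means in the same direction, though 2 of all those tested passed. All 10 fibroblast markers had a higher mean in the labelled double knockouts than in the Itgb3 knockouts (median 0.89, 0 called), as had all 10 macrophage markers (median 0.53, 2 called, Csf1r and Adgre1). So had 9 of 9 pericyte and smooth muscle markers (median 0.43), 5 of 5 T and NK cell markers (0.49) and 9 of 10 blood endothelial markers (0.34), with 0 called. It was 3 of 3 for lymphatic (median 0.11), 7 of 10 for luminal (0.15) and 4 of 7 for adipocyte markers (0.10). Platelet, basal and mast cell markers gave 3 of 5 (0.01), 2 of 4 (0.08) and 1 of 3 (-0.07), with 0 called in these lists. Relative to control, the mean log2 level of the fibroblast markers ran from -1.78 to 0.69 in the Itgb3 knockouts and from -0.84 to 1.11 in the labelled double knockouts, and that of the macrophage markers from -0.41 to 0.06 and from -0.32 to 0.60. Fits with the fibroblast or the luminal marker mean were among the 11 alternative settings, and neither the Itgb5 nor the Itgav difference passed in them. Over all 11 the Itgb5 difference ran from 0.565 to 0.756 and the Itgav difference from 0.298 to 0.638. Beyond these fits, the part of these cells in the Itgb5 and Itgav differences was not tested. In bulk tumours fewer cells of a type cannot be told apart from less RNA per cell.

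**Figure D2:**
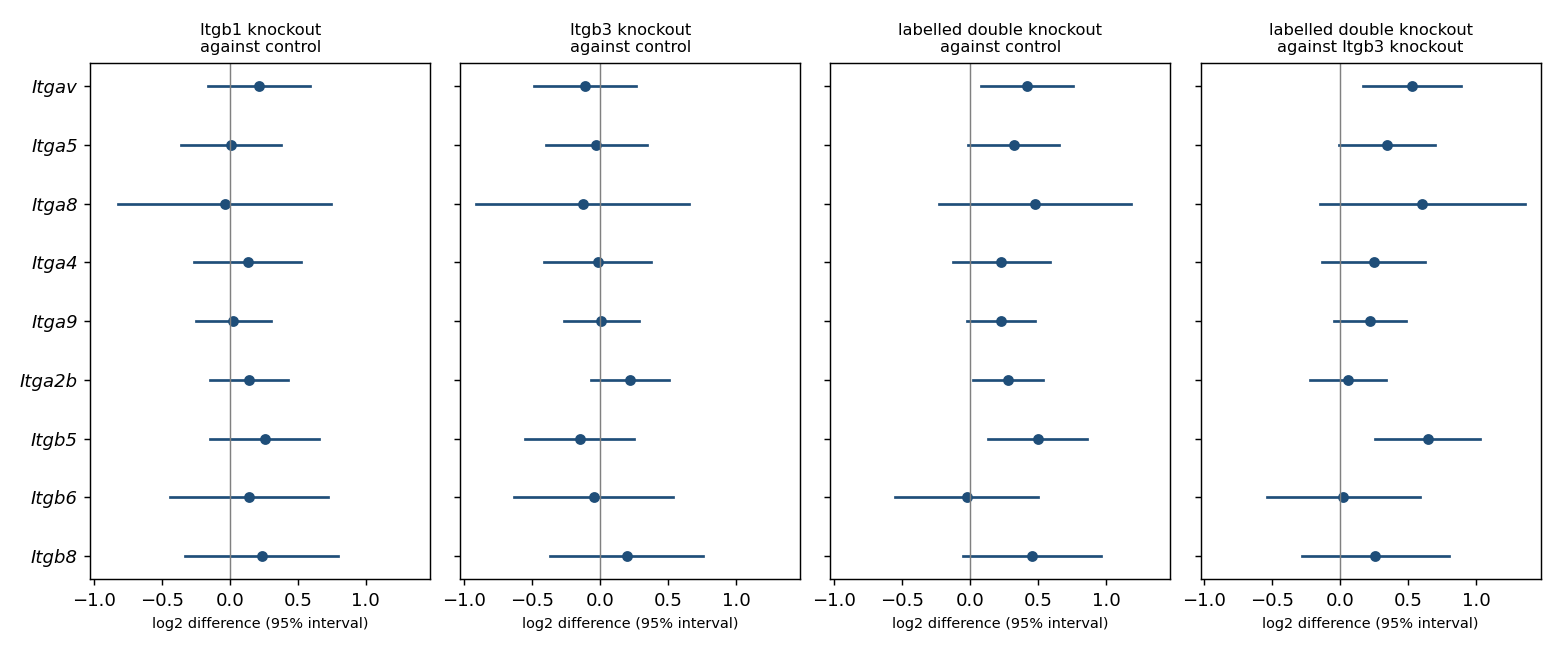
Log2 difference of each subunit (point) with its 95% interval from the limma fit (line) in 4 comparisons. Intervals of Itgb5 and Itgav lay above 0 in the 2 comparisons of the labelled double knockouts shown, before adjustment over all genes, and those of Itga8 were the widest. These 2 comparisons share the labelled double knockout tumours. Against the Itgb1 knockouts, not shown, the intervals of Itgb5 (-0.14 to 0.63) and Itgav (-0.155 to 0.563) spanned 0.

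The other beta partners of alpha v activate latent TGF-beta. Itgb8 encodes the subunit of alpha v beta 8. Its levels were 7.04, 6.96, 7.93, 7.36 and 8.19 in control and 7.41, 7.92 and 8.58 (lowest, median, highest) in the labelled double knockouts. These ranges overlapped widely, with a difference of 0.45 (95% interval -0.05 to 0.96, limma adjusted p = 0.351). Its Itgb1 knockout and Itgb3 knockout means lay 0.23 and 0.20 above control (limma adjusted p = 0.987 and 0.946). The difference between labelled double knockouts and Itgb3 knockouts was 0.26 and turned to -0.11 when the mean of the luminal markers was added to the fit.

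Itgb6 encodes the subunit of alpha v beta 6, which is restricted to epithelia. It was the 1 subunit whose labelled double knockout mean was below that of control, with 5.54 ± 0.25 (SD, n = 5) in control, 5.68 ± 0.54 (n = 4) in the Itgb1 knockouts, 5.49 ± 0.47 (n = 4) in the Itgb3 knockouts and 5.52 ± 0.50 (n = 6) in the labelled double knockouts. The lowest tumours of the 3 knockout groups (4.89, 4.81 and 4.63) lay below the next of their groups (5.815, 5.626 and 5.259). No control was below 5.35. The outlier check given below flagged no Itgb6 tumour. The interval of the labelled double knockout difference, -0.55 to 0.50, leaves room for changes of about that size in either direction.

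No fall of the alpha subunits that pair with beta 1 passed the test where Itgb1 was deleted. Itga5, the alpha subunit of the main fibronectin receptor, had means of 5.82 ± 0.40 (SD, n = 5) in control and 5.83 ± 0.23 (n = 4) in the Itgb1 knockouts, a difference of 0.01 with a 95% interval of -0.36 to 0.38. Its labelled double knockout mean was 6.14 ± 0.20 (n = 6), 1.25-fold above control (limma adjusted p = 0.315), and 1 control at 6.47 exceeded all 6. Itga9, which binds tenascin-C and the EIIIA segment of fibronectin, differed from control by 0.03 in the Itgb1 knockouts (interval -0.25 to 0.30) and by 0.23 in the labelled double knockouts (-0.02 to 0.48, limma adjusted p = 0.334). Itga4, the leukocyte receptor for VCAM-1 and the CS1 segment of fibronectin, differed by 0.13 (-0.26 to 0.53) and 0.23 (-0.12 to 0.59, limma adjusted p = 0.513).

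Itga8, a receptor for nephronectin, had the largest SD over all 19 tumours of the 9 (0.62). Its levels were 8.08, 8.16, 7.84, 9.21 and 9.48 in control, 9.42, 8.60, 8.34 and 7.70 in the Itgb1 knockouts, and 8.50, 7.90, 8.41 and 8.89 in the Itgb3 knockouts. The labelled double knockouts ran from 8.25 through 9.08 to 9.61. Both the control and the Itgb1 knockout groups thus held tumours near the bottom and near the top of the range. The Itgb1 knockout difference was -0.04 (95% interval -0.82 to 0.75), so a 1.5-fold change in either direction lies inside it, and that of the labelled double knockouts was 0.48 (-0.23 to 1.19, limma adjusted p = 0.496).

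Itga2b encodes alpha IIb, which forms the platelet fibrinogen receptor with beta 3, and lies on chromosome 11 like Itgb3, with 40 protein-coding genes between them in the RefSeq table. It was near the filter of 4.38, reaching it on 18 of 19 arrays. Its levels were 4.51, 4.39, 4.74, 4.53 and 4.01 in control and 4.50, 4.73, 4.57 and 4.82 in the Itgb3 knockouts. The Itgb3 knockouts were not lower, with a difference of 0.22 (95% interval -0.07 to 0.51, limma adjusted p = 0.862). The labelled double knockouts ran from 4.53 through 4.68 to 5.10 and differed from control by 0.28 (SE 0.124, limma adjusted p = 0.263).

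In the single knockouts the 9 subunits gave 0 calls and 0 unadjusted p-values under 0.05 by limma. For Itgb1 knockout against control 8 of 9 means were higher, with a median of 0.14, while 0.00703% of all genes passed and 4.86% had an unadjusted p under 0.05. For Itgb3 knockout against control 3 of 9 were higher, with a median of -0.03, while 0% of genes passed and 6.14% had an unadjusted p under 0.05. Between the single knockouts 1 of 9 (Itga2b) was higher in the Itgb3 knockouts, with 0% and 4.55% of all genes. The labelled double knockouts had 8 of 9 higher than the Itgb1 knockouts, with a median of 0.20, and 0.0211% and 12.3% of all genes. The interaction, the labelled double knockout difference less both single differences, was above 0 for 7 of 9, with adjusted p from 0.57 to 0.986 by limma, while 0% of genes passed and 12.5% had an unadjusted p under 0.05. The largest interaction was that of Itga8, 0.64 (SE 0.52), and that of Itgb5 was 0.39 (SE 0.265). Of all genes, 55.9% had a higher mean for Itgb1 knockout against control and 47.6% for Itgb3 knockout against control. The share was 42.8% for Itgb3 knockout against Itgb1 knockout and 51.1% for labelled double knockout against Itgb1 knockout. The interaction was above 0 for 50.8% of all genes.

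The genes around these receptors were taken from lists of ligands, TGF-beta activation and response, tail adaptors, trafficking and the other integrin subunits. Of the ligands 19 of 27 were tested, and none passed in any comparison. In the labelled double knockouts 17 of these 19 had a higher mean than control (median 0.38), beside 55.9% of all genes. Fibronectin itself (Fn1) differed from control by 0.76 there (SE 0.491, limma adjusted p = 0.45) and by -1.13 in the Itgb3 knockouts (SE 0.544, limma adjusted p = 0.808), and vitronectin (Vtn) by 0.07 and 0.23. Between labelled double knockouts and Itgb3 knockouts Fn1 was 3.72-fold higher (1.89, SE 0.523, limma adjusted p = 0.0541), the widest ligand difference there, and did not pass. Fn1, Vtn and Tgfb1 were picked for being the ligands after which the receptors are described, with their values known. Tgfb1, whose latent form the alpha v dimers bind, differed by 0.55 in the labelled double knockouts (SE 0.192, limma adjusted p = 0.167).

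Among 17 tested TGF-beta genes none passed against control, and 14 had a higher mean in the labelled double knockouts (median 0.26), beside 55.9% of all genes. Against the Itgb3 knockouts, where 2.87% of all genes were called, 3 rose: Lrrc32, which anchors latent TGF-beta at the cell surface, by 1.18 (limma adjusted p = 0.0163), Mmp14, a membrane-bound matrix protease, by 1.18 (limma adjusted p = 0.0296), and Ltbp4, a latent TGF-beta binding protein, by 0.73 (limma adjusted p = 0.0337). They are named because they are few, after their values were seen. None of 14 tail adaptors and none of 12 trafficking genes passed in any comparison, with medians against control of 0.12 and 0.06 in the labelled double knockouts. Of 15 other integrin subunits, 2 rose and 1 (Itgb1) fell in the labelled double knockouts against control, beside 0.387% of all genes called. Those that rose were Itga2, the alpha subunit of a collagen receptor (0.93, SE 0.175, limma adjusted p = 0.0279), and Itgb4, the laminin-binding subunit of hemidesmosomes (0.91, SE 0.198, limma adjusted p = 0.0499). Against the Itgb3 knockouts 4 rose (Itga2, Itgb4, Itgb3 and Itgax, a leukocyte subunit, by 0.93, 1.05, 1.13 and 1.04) and Itgb1 fell, beside 2.87% of all genes called. The 15 include Itgb1 and Itgb3, the genes targeted in these groups, so their calls bear on the deletions and not on the other subunits. Whether Itga2, Itgb4 or Itgax moved more than Itgb5 or Itgav was not tested.

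Next, the subunits were followed from tumour to tumour within groups, after subtracting each group mean. For transcripts of subunits that form a dimer, none of 11 known pairs passed (within-group permutation test, smallest adjusted p = 0.667), and Itgav had r = -0.09 with Itgb5, -0.26 with Itgb6 and 0.11 with Itgb8. The highest was Itga4 with Itgb7, the partner in the gut-homing receptor (Pearson r = 0.54, Spearman rho = 0.43, permutation p = 0.0607 and 0.106, n = 19 tumours). It was 0.13 without the 2 tumours farthest from the median of Itga4, so it rested on them. Both genes had low signal, with means of 4.91 for Itga4 and 4.46 for Itgb7. Itgb7 was below the filter of 4.38 on 6 of 19 arrays. Over all 36 pairs of the set, given as a description with arrays and normalization shared, r ran from -0.47 (Itga9 and Itga2b) to 0.61 (Itgav and Itga8), with a median of 0.12. Itga5 and Itga9 (0.58), Itgav and Itga9 (0.52) and Itgb6 and Itgb8 (0.51) followed.

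**Figure D3:**
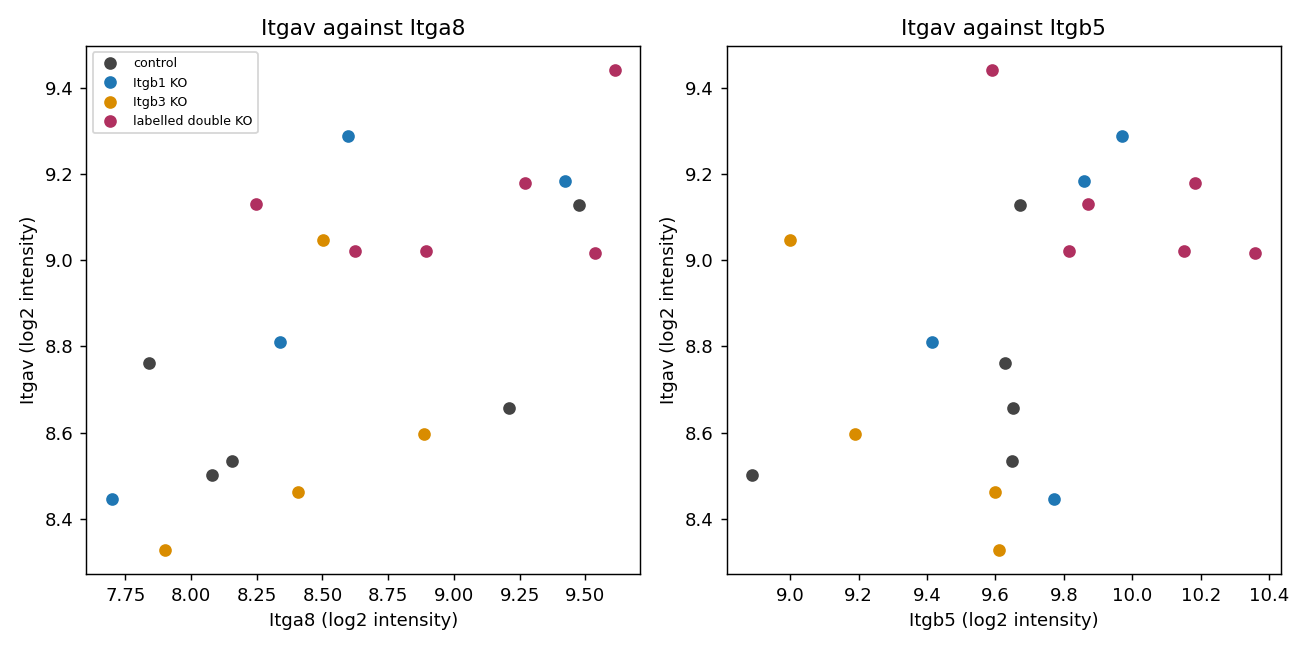
Log2 intensity of Itgav against that of Itga8 (left) and Itgb5 (right) in the 19 tumours, coloured by group. With group means subtracted r was 0.61 for Itga8 and -0.09 for Itgb5.

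Markers of the cell types that a bulk tumour holds were set beside each subunit in the same way, in 99 relations. None passed by Pearson r (smallest adjusted p = 0.231) or Spearman rho (smallest adjusted p = 0.0535, Itga4 with lymphatic endothelium, rho = 0.77 and r = 0.53). An unadjusted permutation p under 0.05 for r was reached by 14. The highest r was that of Itga8 with basal and myoepithelial markers (r = 0.68, rho = 0.61, and r = 0.86 without the 2 farthest tumours). Itgb8 had r = 0.64 with the basal and 0.60 with the luminal markers (0.52 and 0.53 without the 2 farthest), and Itgb6 had 0.63 with the luminal markers (0.60 without). Itgb5 had r = 0.62 with T and NK cell markers (0.42 without) and 0.53 with macrophage markers (0.53 without). Itga9 had 0.56 with fibroblasts (0.59 without), and Itga5 and Itga4 both had 0.57 with blood endothelium (0.61 and 0.65 without). The basal list rested on 4 tested markers of 9, the T and NK list on 5 of 10 and the lymphatic list on 3 of 6. Itga2b had r = 0.04 with the platelet and megakaryocyte markers, of which 5 of 10 were tested.

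**Figure D4:**
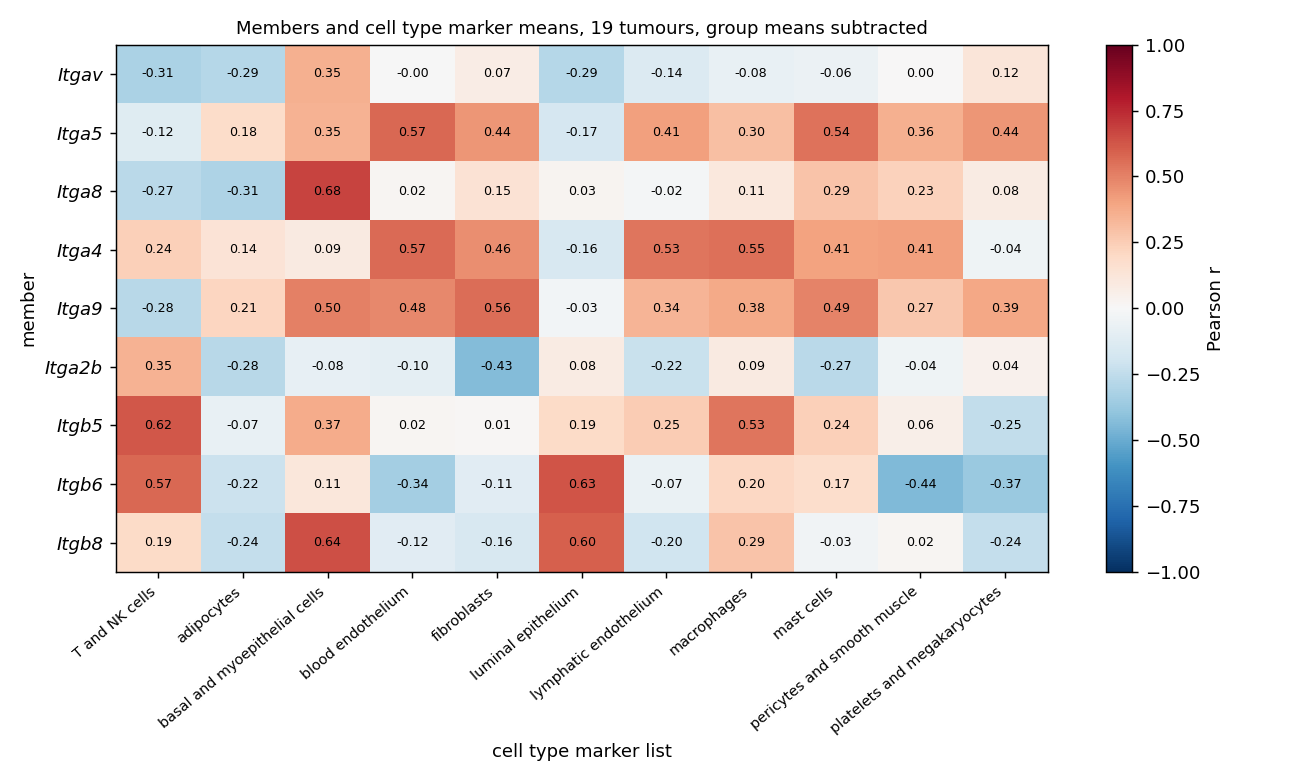
Pearson r (colour and number) between each subunit (rows) and the mean of each cell type marker list (columns) over 19 tumours after subtraction of group means. Itga8 with basal and myoepithelial markers was the highest of the 99 relations at 0.68, and none passed the adjusted test.

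Of 12890 genes compared, those whose levels over the 19 tumours were most like each subunit are given with Pearson r as a description, with arrays and normalization shared. Group means were not subtracted here, so differences between groups enter r. With group means subtracted, r for these pairs ran from 0.62 (Itgav and Trim44) to 0.92 (Itga8 and Meltf). Spearman rho, without that step, ran from 0.53 (Itga2b and Smpd2) to 0.90 (Itga8 and Meltf). Itgb5 was followed most closely by Rhob (0.90), a small GTPase, and C1qa (0.88), a complement gene of macrophages that is also on the macrophage list. Itga8 was followed by Meltf (0.90) and Trib2 (0.89), and Itga9 by Sh3kbp1 (0.87) and Igfbp7 (0.87). Itga5 had the urokinase receptor gene Plaur (0.80) and the matrix protease gene Mmp19 (0.79). Itgav had the Wnt co-receptor gene Lrp6 (0.81) and Trim44 (0.80), and Itga4 had the Wnt antagonist gene Dkk2 (0.80) and Spryd3 (0.79). Itgb8 had Ephx1 (0.82) and Mapkapk3 (0.81), Itgb6 had Rinl (0.75) and Pls3 (0.74), and Itga2b had H2al1m (0.85) and Smpd2 (0.80).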

How the data were processed

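Each tumour gave 1 array, and the deposited table held log2 intensities for 41345 probe sets, which the authors had normalized. Per the submitters' processing notes the software was Affymetrix Expression Console, and its version, background correction and way of combining probes were not stated there, so the scale of low values is unknown. No further normalization was applied. Names came from the platform annotation: 23521 probe sets had 1 symbol, 1814 several and 16010 none, and 1 probe set shared by Itga4 and another gene was left out.

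A gene was tested where its highest-mean probe set reached the table median, 4.38, on at least 4 arrays. Under R 4.3.3, limma 3.58.1 fitted lmFit with eBayes to all 19 arrays in 1 fit with 1 mean per group (15 residual degrees of freedom, 18.7 after moderation), with two-sided tests, Benjamini-Hochberg adjustment over 14230 genes and a threshold of 0.05. Relations across tumours used group-centred levels and 100000 permutations within groups, two-sided (numpy 2.4.6, ranks by scipy 1.17.1), adjusted over 11 pairs and 99 marker relations. Scripts were tested on simulated data. The members, lists and tests were chosen with earlier results of these data known. The rule for named genes took the 9 members, Itgb1, Itgb3 and Itgb7, the 2 most alike genes of each member (without predicted genes, olfactory and antigen receptors and small RNAs), and pathway genes that passed against control. Outside that rule, and with values known, the text names Fn1, Vtn and Tgfb1 as ligands and Lrrc32, Mmp14, Ltbp4, Itgax, Csf1r and Adgre1, which passed against the Itgb3 knockouts. Alternatives were the filter, samples in the fit, scaling, array weights, variance prior, probe set choice, marker covariates, plain t statistics and leaving out arrays. The number of arrays limits the precision.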

Additional observations from a re-analysis of the deposited data

Results flagged for a closer look

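The highest and lowest tumour of each group was set against the others of the group for the 9 subunits in 4 groups, 36 in all, where chance alone flags about 1 in 20. Itgb5 in control replicate 1 was far below the other 4 controls, at 8.888 against 9.628 for the nearest, a gap of 0.945 of the range of the group (limit 0.71). Itga2b in labelled double knockout replicate 5 was far above the other 5, at 5.096 against 4.712, a gap of 0.675 of the range (limit 0.625).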

How the results depend on the processing

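Each member comparison was repeated under 11 alternatives (10 for the interaction) and with each of the 19 arrays left out, which gave 1874 values (Itga2b was not tested where the filter had to be met on all arrays). The count of members called stayed at 0 throughout in 6 of the 7 comparisons. For labelled double knockout against Itgb3 knockout it was 2 with arrays centred on their medians, 2 with array weights (Itgb5 and Itgav both times), and 0 to 1 with an array left out (1, Itgb5, without control replicate 1 or without labelled double knockout replicate 4). In that comparison the centred arrays gave 1167 higher and 53 lower genes over the whole table, against 338 and 70 in the main fit. Genes called over the whole table were 408 there (21 to 1569 over the alternatives, 56 to 459 with an array left out), 55 for labelled double knockout against control (2 to 100, 14 to 125), 3 against Itgb1 knockout (0 to 33, 0 to 24), 1 for Itgb1 knockout against control (0 to 1 in both), 0 between the single knockouts (0 to 1 in both), 0 for the interaction (0 to 3, 0 to 5) and 0 for Itgb3 knockout against control in all. No member pair passed under any alternative, and 4 of the 99 marker relations passed when group means were not subtracted: Itga5 with blood endothelium, Itga8 with basal markers, and Itgb5 with macrophages and with T and NK cells (adjusted p = 0.0371 each).

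Of the 1874 values 93 had the opposite sign, in 26 of 63 member comparisons. None of these passed in either form, and 0 of the 26 differences was as large as its standard error. The cause was not tested. With the fibroblast covariate these were, for Itgb3 knockout against Itgb1 knockout, Itga2b -0.046, Itga4 0.043, Itga5 0.134, Itga8 0.04 and Itga9 0.135, for Itgb3 knockout against control Itga4 0.087 and Itga5 0.066, for Itgb1 knockout against control Itga5 -0.068 and Itga9 -0.043, and for labelled double knockout against control Itgb6 0.007. With the luminal covariate Itga5 was -0.015 (Itgb1 knockout against control), Itgb6 0.196 (Itgb3 knockout against control) and -0.376 (labelled double against Itgb3 knockout), and Itgb8 was -0.108 (labelled double against Itgb3 knockout), -0.073 (against Itgb1 knockout), 0.035 (between single knockouts) and -0.491 (interaction). With array weights they were Itga4 0.04, Itga9 -0.011 (Itgb3 knockout against control), Itga5 -0.025, Itga9 -0.002 (Itgb1 knockout against control), Itga8 0.123, Itgb8 0.013 (between single knockouts) and Itgb6 0.112 (labelled double knockout against control). With centred arrays they were Itga2b 0.021 (interaction), Itga9 -0.056 (Itgb3 knockout against control) and Itgb6 0.021 (labelled double knockout against control). With quantile normalization they were Itga2b 0.01 and Itgb8 -0.037 (interaction), Itga5 -0.001 (Itgb1 knockout against control), Itga9 -0.021 (Itgb3 knockout against control) and Itgb8 0.025 (between single knockouts).

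With an array left out the ranges that crossed 0 were, for Itgb1 knockout against control, Itga5 -0.08 to 0.174, Itga8 -0.341 to 0.233 and Itga9 -0.058 to 0.096. For Itgb3 knockout against control they were Itga4 -0.12 to 0.124, Itga5 -0.11 to 0.138, Itga8 -0.306 to 0.103, Itga9 -0.073 to 0.081 and Itgb6 -0.185 to 0.181. Between the single knockouts they were Itga5 -0.119 to 0.054, Itga8 -0.36 to 0.214, Itga9 -0.087 to 0.027, Itgb6 -0.452 to 0.039 and Itgb8 -0.187 to 0.103. For the labelled double knockouts they were Itgb6 -0.102 to 0.154 against control, Itga4 -0.028 to 0.18 and Itgb6 -0.428 to 0.013 against Itgb1 knockout, and Itga2b -0.018 to 0.112 and Itgb6 -0.203 to 0.201 against Itgb3 knockout. For the interaction they were Itga2b -0.163 to 0.021, Itga4 -0.026 to 0.218, Itgb6 -0.381 to 0.06 and Itgb8 -0.151 to 0.172. No paired analysis was possible because the labels give no replicate numbers. No batch or scan date was given, so none was tested.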
